A study of Mus musculus with 2 samples.

Results

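The unfolded protein response and endoplasmic reticulum (ER) folding genes described here are 33 genes of the ER's folding, quality control and stress signalling machinery. They were taken by symbol from a list drawn up with earlier results of these data known. All 33 were found among the 32285 genes of the deposited matrices. The source was whole pituitary from male mice of the inbred strain C57BL/6, dissociated and read out by droplet-based single-cell RNA sequencing of transcript 3′ ends. The old library pooled 10 glands of mice aged 20 months, and the young library pooled 10 glands of mice aged 2 months. No genetic change or drug treatment is given for either age. Each age has 1 library, so no difference between ages could be tested and no value has a replicate check. The exact 95% intervals in parentheses describe counting error alone and hold nothing of the spread between animals or pools.

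Hormones are made on ribosomes at the ER, enter its lumen through a channel called the translocon, and are folded there by chaperones and by enzymes that form disulfide bonds. When unfolded protein builds up, the sensors IRE1, PERK and ATF6 start the unfolded protein response, which raises the transcripts of chaperones and of ER-associated degradation, the route that returns misfolded protein to the cytosol for disposal. PERK and related kinases also start the integrated stress response, in which the factor ATF4 raises genes for amino acid supply and, when stress lasts, for cell death. Pituitary endocrine cells secrete large amounts of hormone and carry an extensive ER.

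The genes fall into 7 roles. Atf6 and Ern1 encode the sensors ATF6 and IRE1, and Xbp1 and Atf4 encode transcription factors. Ddit3 (the factor CHOP), Trib3 (a pseudokinase that restrains ATF4), Chac1 (an enzyme that degrades glutathione), Asns (asparagine synthetase) and Ppp1r15a (GADD34, the phosphatase subunit that restarts translation) are targets of the integrated stress response. Hspa5 (BiP, the main HSP70 chaperone of the ER), Hsp90b1 (GRP94), Hyou1 (a large HSP70-like protein), Dnajb9, Dnajb11, Dnajc3 (co-chaperones of BiP), Sdf2l1, Creld2 and Manf (small luminal proteins) form the chaperone group of 9. Pdia3, Pdia4, Pdia6 and P4hb are disulfide isomerases and Fkbp11 is a prolyl isomerase. Calr and Canx are calreticulin and calnexin, the chaperones that bind sugar chains. Edem1, Herpud1, Sel1l, Syvn1, Derl1 and Derl3 belong to ER-associated degradation, and Sec61b and Ssr1 to the translocon. Ddit3 stood under 2 gene identifiers in the files, of which 1 had 0 UMIs (unique molecular identifiers, each counting 1 captured transcript) in both libraries. The spliced form of Xbp1, which makes the active factor, cannot be told from the unspliced one in these 3′ counts.

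Several of these genes are known to be switched on through the ER stress response element (ERSE), the DNA sequence that ATF6 and XBP1 recognise with the factor NF-Y. Promoter windows of 300 bases, 250 before and 50 after the start of transcription, were taken from RefSeq's table for the mouse build GRCm38.p6 and searched on both strands. Of the 33 genes, 29 had an entry. The ERSE was searched as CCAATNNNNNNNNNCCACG, which 9 of the 29 genes held, against 0.119% of all 32851 windows. The related ERSE-II, ATTGG and CCACG with any 1 base between them, was held by Herpud1 and Dnajb11, against 0.0365% of all windows. An ATF4 element, TGATGNAAT, was in 0 of the 29 genes and in 0.965% of all windows, which says only that these letters are not in these windows. The matched stretches of the 9 genes are shown because the element is the one this response is known to act through. Each is written 5′ to 3′ on the gene's own strand, with the fixed letters in capitals. CCAAT and CCACG mark a match on the gene's strand, and CGTGG and ATTGG a match on the other strand.
Hspa5, chr2:34772020-34772048, plus strand: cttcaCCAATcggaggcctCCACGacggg
Hsp90b1, chr10:86705633-86705661, minus strand: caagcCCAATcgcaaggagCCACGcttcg
Hsp90b1, chr10:86705528-86705556, minus strand: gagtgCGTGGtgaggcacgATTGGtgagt
Dnajc3, chr14:118937822-118937850, plus strand: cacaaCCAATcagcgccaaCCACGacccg
Pdia6, chr12:17266486-17266514, plus strand: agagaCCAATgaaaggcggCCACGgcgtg
Creld2, chr15:88819515-88819543, plus strand: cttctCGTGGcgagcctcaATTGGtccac
Calr, chr8:84847070-84847098, minus strand: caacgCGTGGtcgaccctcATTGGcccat
Canx, chr11:50325795-50325823, minus strand: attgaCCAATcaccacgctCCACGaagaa
Syvn1, chr19:6046527-6046555, plus strand: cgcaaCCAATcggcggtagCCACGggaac
Derl3, chr10:75893237-75893265, plus strand: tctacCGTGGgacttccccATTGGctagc
The ERSE-II matches of Herpud1 and Dnajb11 are also written 5′ to 3′ on the gene's own strand. Both lie on that strand, where this element reads ATTGG and then CCACG.
Herpud1, chr8:94386372-94386392, plus strand: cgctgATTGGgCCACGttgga
Dnajb11, chr16:22857847-22857867, plus strand: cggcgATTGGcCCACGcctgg
The whole Hspa5 window, chr2:34771840-34772139 on the plus strand, is given because BiP is the standard reporter of this response, with the same capitals. Its exact match begins 65 bases before the start of transcription, and inexact copies of the element were not searched for or marked.
Hspa5 window: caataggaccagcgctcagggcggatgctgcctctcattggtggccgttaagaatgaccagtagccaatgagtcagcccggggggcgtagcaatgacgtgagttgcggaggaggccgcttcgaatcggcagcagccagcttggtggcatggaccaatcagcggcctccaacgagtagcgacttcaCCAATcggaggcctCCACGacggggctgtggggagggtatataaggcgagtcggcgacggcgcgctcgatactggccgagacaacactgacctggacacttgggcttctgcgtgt

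After filters, 9017 old and 8531 young barcodes remained. A cluster of 5545 old barcodes and 1 young barcode matched the profile of empty droplets and was left out as free RNA, which left 3472 old and 8530 young barcodes with medians of 5847.5 UMIs old and 6317.5 young. Cells were named "like" a type from marker genes, and the gonadotroph-like class also carried Tshb, a thyrotroph marker. A cluster of 194 old and 307 young barcodes led by Gh and almost without the nuclear RNA Malat1 (medians of 0.194% old and 0.0715% young) stayed unnamed. The libraries shared 31 barcode sequences after filters. Levels are in CPM, the UMIs of a gene per 1000000 of the UMIs left when 7 hormone genes and 13 mitochondrial genes are set aside, since growth hormone alone takes a large share of somatotroph UMIs.

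The 33 genes together were higher in endocrine than in other cells on average. The mean of their summed level over 5 endocrine classes was 8596 CPM in the old library and 8084 CPM in the young library. The mean over 11 other classes of at least 20 cells was 5652 CPM old and 5498 CPM young, so endocrine classes were 1.52 times as high old and 1.47 times as high young. The ranges overlapped, since endocrine classes spanned 7329 to 10702 CPM old and 6194 to 9449 CPM young, and other classes 2842 to 8168 CPM old and 3271 to 8238 CPM young. With all UMIs as the total, hormones included, the ratios were 1.33 old and 1.26 young. Cells of 1 library are not replicates, so no test was made between classes.

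**Figure D1:**
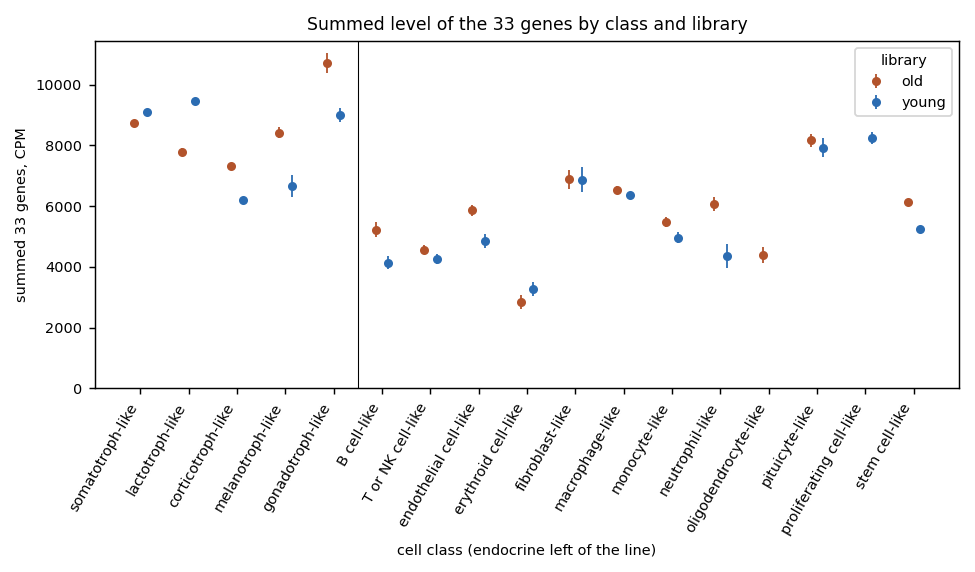
Summed level of the 33 genes in CPM (y axis, linear, from 0) in each cell class (x axis), old left of young, with exact counting intervals; classes under 20 cells are not drawn. Gonadotroph-like cells of the old library were highest at 10702 CPM, and erythroid cell-like cells lowest in both libraries, at 2842 CPM old and 3271 CPM young.

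By class, gonadotroph-like cells, which make the gonadotropins, had a summed level of 10702 CPM (10383 to 11029) old and 8997 CPM (8760.3 to 9239) young, from 35 old and 63 young cells. Lactotroph-like cells, the prolactin producers, had 7790.3 CPM (7659.7 to 7923) old and 9449 CPM (9333 to 9566) young. Somatotroph-like cells, the growth hormone producers, had 8734 CPM (8668 to 8802) old and 9115 CPM (9079 to 9151) young. The order of the endocrine classes differed between libraries, with lactotroph-like cells highest in the young library, and below gonadotroph-like, somatotroph-like and melanotroph-like cells in the old library. Corticotroph-like cells, which make the precursor of ACTH, had 7329 CPM (7229 to 7429) old and 6194 CPM (6139 to 6249.7) young and were the lowest endocrine class in both. Melanotroph-like cells of the intermediate lobe had 8422 CPM (8246 to 8601) old and 6664 CPM (6307 to 7035) young, from 151 old and 43 young cells.

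Among the other classes, pituicyte-like cells, the glia of the posterior lobe, had 8168 CPM (7964 to 8376) old and 7924 CPM (7625 to 8231) young, within the endocrine range. Proliferating cell-like cells, of which there were 148 young and 1 old, had 8238 CPM (8040.1 to 8440.5) in the young library. Their median hormone share was 49.1%, against 33.8% in young somatotroph-like cells, and their free RNA was estimated at 88.8% of UMIs, a method that counts markers of hormone cells as foreign to this class. Without them the endocrine over other ratio of the young library was 1.55. Macrophage-like cells had 6549.7 CPM (6442 to 6659) old and 6361 CPM (6278 to 6445) young, and stem cell-like cells 6143 CPM (6044 to 6243) old and 5248 CPM (5196 to 5301) young. These lay below the endocrine mean of either library. T or NK cell-like cells had 4573 CPM (4436 to 4713) old and 4264 CPM (4097 to 4436) young. Free RNA carried these transcripts too, at 6339 CPM in old and 7433 CPM in young barcodes of at most 100 UMIs. Its estimated share of UMIs was 4.04% old and 3.32% young in somatotroph-like cells and 16.5% old and 18.2% young in T or NK cell-like cells.

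Of the 33 genes, 20 were at least 1.5-fold higher in the endocrine classes of the old library and 16 in those of the young library, 15 of them in both. Over all genes measured, 37.5% passed that fold in the old library and 40.0% in the young library. The share of all genes passing in both was not computed. The young count lay nearer to the share of all genes than the old count did. With all UMIs as the total, 12 genes passed in the old library and 10 in the young library. No share over all genes was computed on that total, so these counts cannot be set against all genes. Edem1, a mannose-binding protein of ER-associated degradation, was the 1 gene at least 1.5-fold lower, in both libraries. It averaged 9.87 CPM in endocrine and 23.3 CPM in other classes of the old library, a ratio of 0.423. In the young library it averaged 10.9 CPM in endocrine and 27.4 CPM in other classes, a ratio of 0.397. Phagocytes had the most, with 47.3 CPM old and 52.1 CPM young in macrophage-like cells and 41.2 CPM old and 50.4 CPM young in monocyte-like cells, alongside 53.1 CPM in the 25 neutrophil-like cells of the young library.

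Asns had the highest endocrine ratio in both libraries, and Fkbp11 and Derl3 were among the 4 highest in both. Asns averaged 52.8 CPM in endocrine and 17.98 CPM in other classes of the old library, a ratio of 2.93, and 56.4 CPM in endocrine and 15.5 CPM in other classes of the young library, a ratio of 3.64. Fkbp11 averaged 85.8 CPM in endocrine and 30.8 CPM in other classes of the old library, a ratio of 2.78, and 92.5 CPM in endocrine and 36.8 CPM in other classes of the young library, a ratio of 2.51. Both were highest in endocrine classes in either library, Asns in somatotroph-like cells with 76.1 CPM old and 74.1 CPM young. Derl3, a channel protein of ER-associated degradation that had few counts, had ratios of 2.54 old and 2.62 young. Chac1 had ratios of 2.06 old and 2.76 young, and Hyou1 2.28 old and 1.97 young, where in the young library Sdf2l1 at 2.12 and Ern1 were above it. For Hyou1, 4 of the 5 endocrine classes lay above every other class in both libraries.

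Hspa5 averaged 1509 CPM in endocrine and 924 CPM in other classes of the old library, a ratio of 1.63. In the young library it averaged 1277 CPM in endocrine and 760.3 CPM in other classes, a ratio of 1.68. Of the 5 endocrine classes, 4 lay above every other class in the old library and 3 in the young one. The highest was gonadotroph-like cells in the old library, with 1787 CPM, and lactotroph-like cells in the young one, with 1534 CPM. Xbp1, the factor that builds the secretory apparatus, was highest in somatotroph-like cells, with 262 CPM old and 249.8 CPM young, and had endocrine ratios of 1.597 old and 1.51 young. Ern1, the sensor that splices it, had ratios of 1.63 old and 2.05 young, and Manf of 1.99 old and 1.82 young.

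Other genes did not separate endocrine cells. Ppp1r15a averaged 429.9 CPM in endocrine and 433 CPM in other classes of the old library, a ratio of 0.992, and 367 CPM in endocrine and 370.3 CPM in other classes of the young library, a ratio of 0.991. It was highest in macrophage-like cells, with 846 CPM old and 898 CPM young. Dnajb11 had ratios of 0.935 old and 0.951 young and was highest in pituicyte-like cells, with 88.8 CPM old and 107 CPM young. Dnajc3, which also inhibits PERK, had ratios of 1.16 old and 1.13 young, with 543 CPM old and 444 CPM young in fibroblast-like cells. Calr and Pdia3, which act together on glycoproteins, were highest in gonadotroph-like cells, with 883 CPM old and 739 CPM young for Calr and 1344 CPM old and 1054 CPM young for Pdia3. Canx, the other lectin chaperone, was highest outside the endocrine classes, at 392 CPM old and 363 CPM young, against endocrine maxima of 355 CPM old and 352 CPM young.

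**Figure D2:**
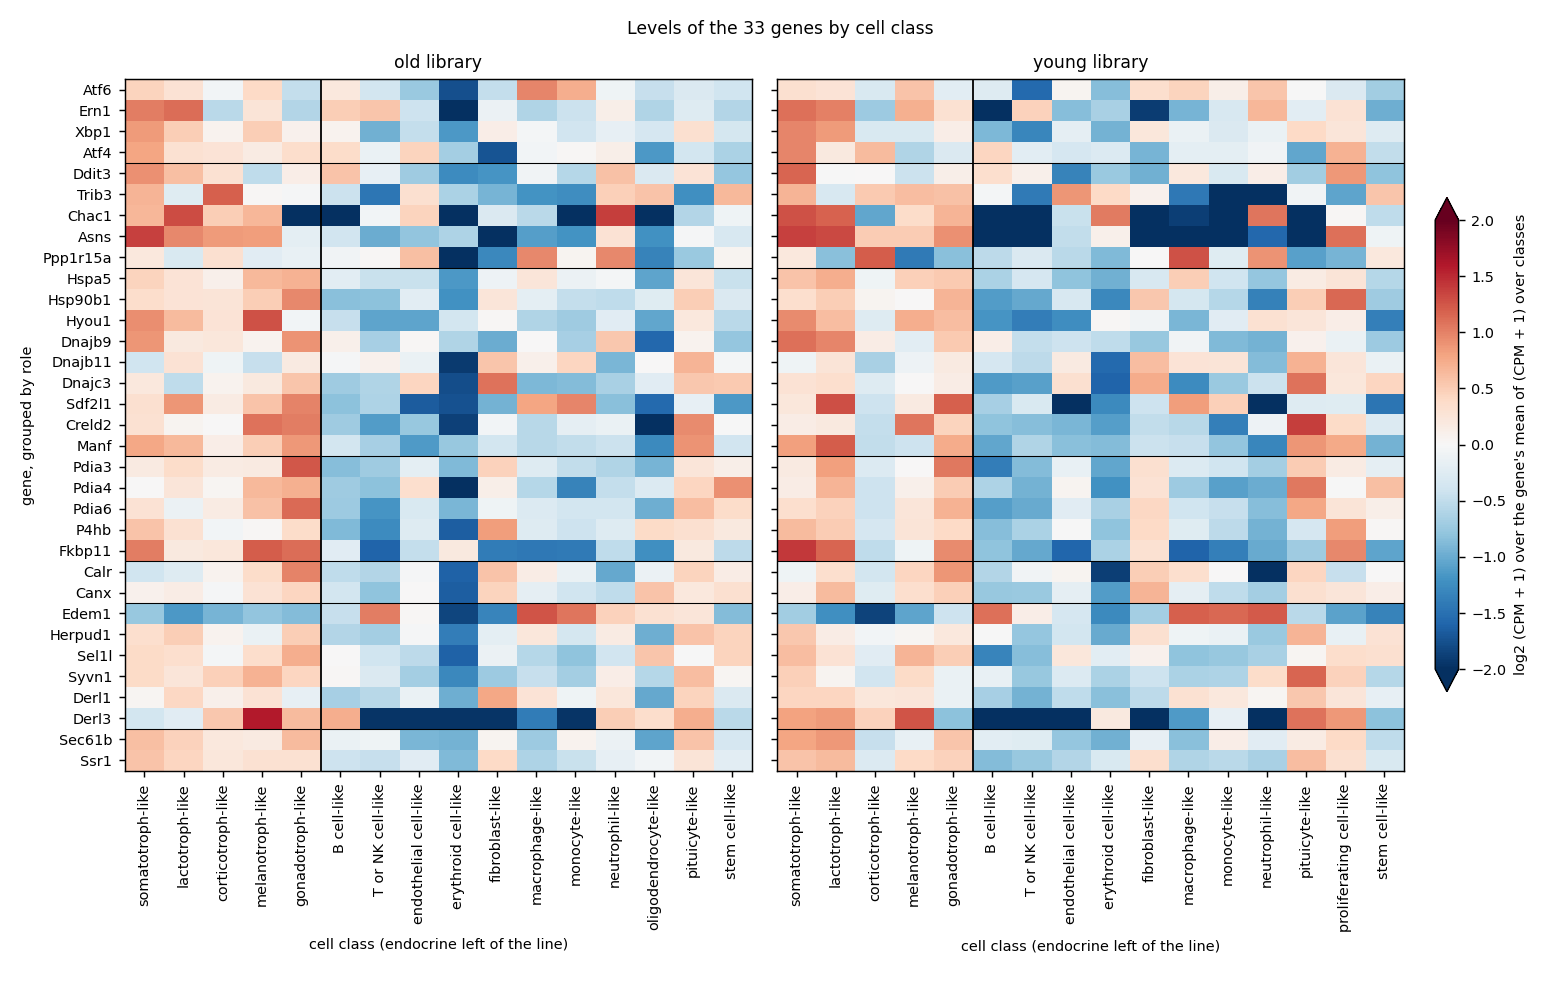
Level of each gene (rows, by role) in each class (columns), as log2 of (CPM + 1) over the gene's mean of (CPM + 1) across the classes of that library, old library in the left panel and young in the right; endocrine classes stand left of the vertical line. Fkbp11, Asns and Hyou1 are red in most endocrine columns, and Edem1 is blue there, where it averaged 9.87 CPM old and 10.9 CPM young.

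Genes whose class pattern was most like that of Hspa5 were sought among 9137 genes that reached 50 CPM in at least 1 value, by Spearman's rho over 32 class-by-library values. The closest were Ufsp2 (a protease of the UFM1 pathway, which modifies ER proteins) at 0.822, Rtn1 (reticulon 1, an ER-shaping protein) at 0.811, Irak1 (a kinase of immune receptor signalling) at 0.804, Rap1gap (a regulator of the small GTPase RAP1) at 0.796 and Manf at 0.794. These values share libraries and free RNA and are given as a description.

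Between ages, the genes differed in opposite directions in lactotroph-like and corticotroph-like cells. Of the 33, 21 were lower in old lactotroph-like cells and higher in old corticotroph-like cells, where 19.2% of all genes measured in both classes were, but with all UMIs as the total 6 genes turned to higher in old lactotroph-like cells and 0 turned in corticotroph-like cells. In lactotroph-like cells the summed level was 7790.3 CPM old and 9449 CPM young, a ratio of 0.824 (0.807 to 0.842). In corticotroph-like cells it was 7329 CPM old and 6194 CPM young, a ratio of 1.18 (1.16 to 1.203). The median log2 ratio of the genes, old over young, was -0.20 in lactotroph-like cells, where the median of all 11435 measured genes was 0.14. It was 0.39 in corticotroph-like cells, where that of 12905 genes was 0.075. A gene counted as measured with at least 20 UMIs over both libraries in the class. With all UMIs as the total, the lactotroph-like median was -0.036 for the 33 genes and 0.30 for all genes. The corticotroph-like medians were then 0.34 and 0.024.

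**Figure D3:**
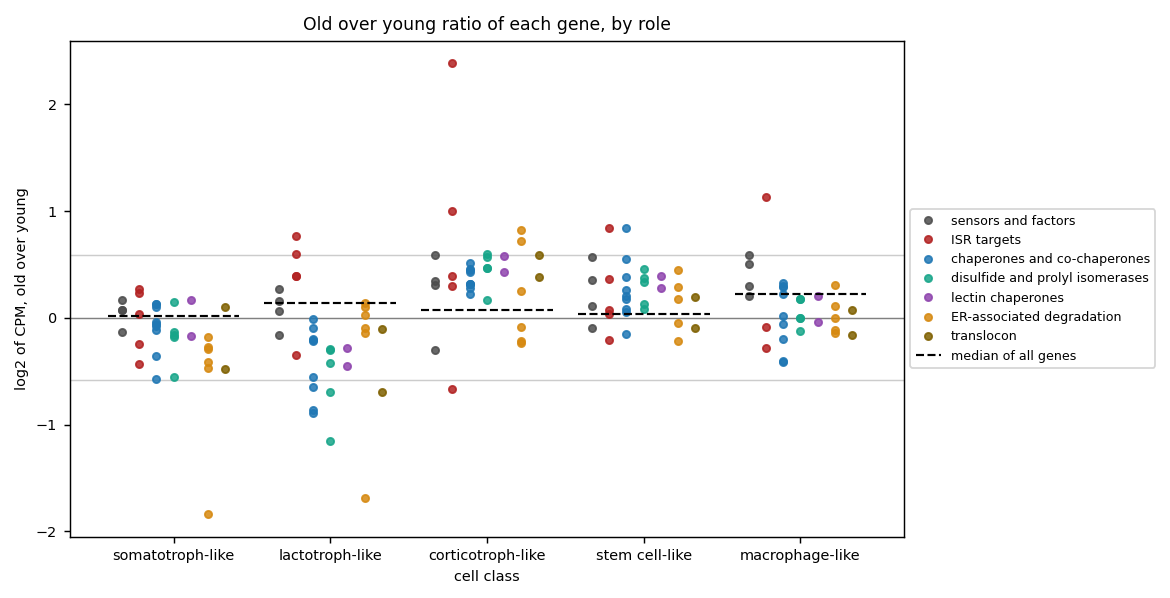
Log2 of the old over young CPM ratio (y axis) of each measured gene, coloured by role, in the 5 classes with at least 200 cells per library (x axis); the dashed line is the median of all measured genes and the grey lines mark 1.5-fold. Lactotroph-like points lie mostly below 0 on this scale, with 10 of 33 higher in old, and corticotroph-like points mostly above it, with 28 of 33 higher in old.

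In old lactotroph-like cells, 2 of the 33 genes were at least 1.5-fold higher and 7 at least 1.5-fold lower. Over all genes measured, 21.0% were that much higher and 9.06% that much lower. Manf, a secreted survival factor of the ER, had 392 CPM old and 713 CPM young, a ratio of 0.549 (0.503 to 0.5999). Dnajc3 had 179 CPM old and 331 CPM young, a ratio of 0.5403 (0.473 to 0.615), and Fkbp11 had 55.2 CPM old and 123 CPM young, a ratio of 0.45 (0.355 to 0.566). Derl3 was lowest by ratio but rested on 4 UMIs old and 20 young, a ratio of 0.3103 (0.0771 to 0.926). The others past the fold were Pdia6 at 0.616 (0.546 to 0.695), the translocon subunit Sec61b at 0.617 (0.571 to 0.666) and Dnajb9 at 0.637 (0.564 to 0.719).

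Every chaperone, isomerase, lectin chaperone and translocon gene of the 33 had a ratio below 1 in lactotroph-like cells, while most stress response targets did not, but with all UMIs as the total Hsp90b1 (1.05), Hyou1 (1.11) and Ssr1 (1.04) lay above 1. The 9 chaperone genes summed to 3329.5 CPM old and 4254 CPM young, a ratio of 0.783 (0.758 to 0.808), and 0 of 9 were higher in old. The 5 isomerases had a ratio of 0.745 (0.708 to 0.783), the 2 lectin chaperones 0.768 (0.715 to 0.825) and the 2 translocon genes 0.6696 (0.625 to 0.717). Hspa5 had 1334 CPM old and 1534 CPM young, a ratio of 0.869 (0.826 to 0.915). The 5 integrated stress response targets summed to 645 CPM old and 438 CPM young, a ratio of 1.47 (1.36 to 1.601), with 4 of 5 higher in old.

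Ppp1r15a was the highest by ratio in lactotroph-like cells, with 350.3 CPM old and 206 CPM young, a ratio of 1.696 (1.51 to 1.91). Ddit3 followed with 219 CPM old and 145 CPM young, a ratio of 1.52 (1.31 to 1.75). Trib3 at 1.31 (0.533 to 3.18) and Chac1 at 1.31 (0.709 to 2.41) had few UMIs and intervals that span 1. The sensors and factors as a group had a ratio of 1.04 (0.965 to 1.12), with Atf4 at 1.12 (1.003 to 1.24) and Xbp1 at 0.893 (0.782 to 1.02).

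Depth and RNA make-up differed between the lactotroph-like cells of the libraries. The median cell held 5036 old and 8949 young UMIs, Malat1 took a median of 7.98% old and 3.19% young, and hormones a median of 8.36% old and 14.6% young. Summed markers of immune classes (30 genes) were 212 CPM old and 97.1 CPM young, with 6 of the 30 at 0 old and 10 at 0 young, and free RNA took an estimated 6.18% old and 5.91% young. The part of these differences in the result was not tested. In cells with at least 0.5% Malat1 the log2 ratio of the sum was -0.27, with at least 4000 UMIs -0.26, and with 5 strata of hormone share weighted equally -0.24, where all cells gave -0.28. With all UMIs as the total it was -0.11. Within single strata the ratio ran from 0.742 (0.702 to 0.785) to 0.963 (0.916 to 1.01), the latter in the stratum of highest hormone share, which held 13 old and 120 young cells.

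In old corticotroph-like cells, 7 of the 33 genes were at least 1.5-fold higher and 1 at least 1.5-fold lower, where 11.8% and 7.93% of all genes passed those folds. Pdia3, the isomerase that works with calnexin and calreticulin, had 638 CPM old and 422 CPM young, a ratio of 1.51 (1.43 to 1.601). Xbp1 had 153 CPM old and 101 CPM young, a ratio of 1.51 (1.34 to 1.698), and Ssr1, a subunit of the translocon-associated complex, a ratio of 1.502 (1.32 to 1.701). Syvn1, the ubiquitin ligase HRD1, had 33.8 CPM old and 20.6 CPM young, a ratio of 1.64 (1.26 to 2.13), and Edem1 a ratio of 1.77 (1.05 to 2.94). As groups the sensors and factors had a ratio of 0.974 (0.919 to 1.03) and ER-associated degradation 1.01 (0.941 to 1.08), with 3 of 6 higher in old. Chac1 rested on 19 UMIs old and 10 young, a ratio of 5.23 (2.31 to 12.6), and Trib3 on 53 UMIs old and 73 young, a ratio of 1.997 (1.38 to 2.88). Hspa5 stayed under the fold, with 1187 CPM old and 866 CPM young, a ratio of 1.37 (1.32 to 1.43).

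The folding roles that were low in old lactotroph-like cells were high in old corticotroph-like cells. Lectin chaperones had a ratio of 1.44 (1.36 to 1.52), the isomerases 1.41 (1.35 to 1.47), the translocon genes 1.34 (1.27 to 1.43) and the chaperones 1.29 (1.25 to 1.32), with every gene of these 4 roles higher in old. The summed stress response targets went the other way, at 796 CPM old and 1052 CPM young, a ratio of 0.757 (0.722 to 0.793). Most of that sum was Ppp1r15a, which had 539 CPM old and 856 CPM young, a ratio of 0.6303 (0.596 to 0.667), while 4 of 5 targets were higher in old, Ddit3 at 1.23 (1.101 to 1.36) among them. Atf4 was also lower, with 341 CPM old and 421 CPM young, a ratio of 0.809 (0.752 to 0.8703). Derl3 at 0.852 (0.419 to 1.62) and Derl1 at 0.863 (0.739 to 1.004) completed the 4 lowest.

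Corticotroph-like cells had medians of 8487 old and 7111 young UMIs, and Malat1 at 5.39% old and 4.21% young. Immune markers summed to 174 CPM old and 53.5 CPM young, and free RNA took an estimated 4.12% old and 4.44% young. The part of these values was not tested. The number of genes at least 1.5-fold higher was 2 without doublet removal, 4 with all UMIs as the total and 12 with a free RNA profile of barcodes of 500 to 900 UMIs subtracted. These numbers cannot be set against all genes, whose shares were not computed under the alternatives.

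In somatotroph-like cells, the largest class with 1127 old and 3990 young cells, the genes differed little between ages. The summed level was 8734 CPM old and 9115 CPM young, a ratio of 0.958 (0.95 to 0.967), and the direction turned when cells of like hormone share were compared. In 5 strata of hormone share the ratio lay between 1.03 and 1.07, and with all UMIs as the total the log2 ratio of the sum was 0.20 in place of -0.062. The median hormone share was 22.4% old and 33.8% young, with medians of 6616 old and 9548 young UMIs and Malat1 at 4.602% old and 2.68% young. Immune markers summed to 236 CPM old and 105 CPM young. The clusters of the class made up different shares of it, since cluster 5 held 410 old and 444 young cells, cluster 7 held 109 old and 1575 young ones and cluster 2 held 381 old and 1217 young ones, and the part of this was not tested.

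Of the 33 genes, 0 were at least 1.5-fold higher and 1 at least 1.5-fold lower in old somatotroph-like cells, where 11.8% and 9.27% of all genes were. The 1 gene was Derl3, with 2 CPM old and 7.16 CPM young, a ratio of 0.2795 (0.153 to 0.473), from 15 UMIs old and 193 young. Dnajb11 at 0.672 (0.594 to 0.759), Fkbp11 at 0.6796 (0.627 to 0.735) and Sec61b at 0.719 (0.696 to 0.743) came next. The 4 highest were Trib3 at 1.203 (0.945 to 1.52), Ppp1r15a at 1.17 (1.13 to 1.22), Atf6 at 1.13 (1.02 to 1.24) and Canx at 1.12 (1.07 to 1.18). Hspa5 had 1503 CPM old and 1369.8 CPM young, a ratio of 1.097 (1.07 to 1.12), Xbp1 a ratio of 1.05 (0.997 to 1.103), Atf4 of 0.911 (0.878 to 0.944) and Ddit3 of 0.842 (0.802 to 0.883). As groups, ER-associated degradation had a ratio of 0.772 (0.743 to 0.801), with 0 of 6 higher in old. The translocon had 0.7796 (0.757 to 0.802), although Ssr1 alone had 1.07, and the chaperones had 1.01 (0.997 to 1.02). With all UMIs as the total these groups had 0.928, 0.937 and 1.21 in the same order. On that total 11 of the 33 genes turned to higher in old, among them Atf4 at 1.09 and Ddit3 at 1.01.

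In stem cell-like cells, which express Sox2 and do not secrete hormone, 26 of 32 measured genes were higher in old, where 53.9% of all genes were. The summed level was 6143 CPM old and 5248 CPM young, a ratio of 1.17 (1.15 to 1.19). Of the 32, 2 were at least 1.5-fold higher and 0 lower, where 11.0% and 6.27% of all genes were. Hyou1 had 28.4 CPM old and 15.9 CPM young, a ratio of 1.79 (1.31 to 2.43), and Chac1 a ratio of 1.796 (0.735 to 4.15) from 10 UMIs old and 17 young. Hsp90b1 had 642 CPM old and 439.6 CPM young, a ratio of 1.46 (1.37 to 1.55), Ern1 a ratio of 1.48 (1.03 to 2.11) and Hspa5 of 1.31 (1.24 to 1.38). The higher levels lay in the folding genes, since the chaperones had a ratio of 1.25 (1.22 to 1.295), the isomerases 1.23 (1.18 to 1.28) and ER-associated degradation 1.004 (0.936 to 1.08). Derl1 at 0.863 (0.711 to 1.04), Asns at 0.865 (0.629 to 1.17), Dnajb11 at 0.901 (0.735 to 1.099) and Sec61b at 0.933 (0.857 to 1.01) were lowest. Xbp1 had 1.08 (0.938 to 1.24), Atf4 0.937 (0.839 to 1.04) and Ddit3 1.02 (0.868 to 1.201). Immune markers summed to 206 CPM old and 95.6 CPM young and free RNA took an estimated 17.4% old and 10.97% young, whose part was not tested. Without doublet removal 0 genes were at least 1.5-fold higher, and with free RNA subtracted 4, with no share over all genes computed for either.

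In macrophage-like cells the genes lay below the shift of all genes. Their median log2 ratio was 0.044 and that of all genes 0.23, and 17 of 30 were higher in old, where 70.3% of all genes were. Asns had 12.97 CPM old and 5.91 CPM young, a ratio of 2.19 (1.202 to 4.07), and Atf6 98.7 CPM old and 65.6 CPM young, a ratio of 1.505 (1.24 to 1.82). These were the 2 genes at least 1.5-fold higher, with 0 lower, where 22.0% and 4.29% of all genes were. Ern1 at 1.42 (0.919 to 2.17) and Dnajc3 at 1.25 (1.07 to 1.46) followed, and Dnajb11 at 0.7498 (0.604 to 0.927), Manf at 0.756 (0.666 to 0.857), Ddit3 at 0.8203 (0.711 to 0.944) and Sdf2l1 at 0.873 (0.726 to 1.05) were lowest. All 4 sensors and factors were higher in old, Xbp1 at 1.23 (1.06 to 1.43) and Atf4 at 1.15 (1.03 to 1.28) included. Hspa5 had 1311 CPM old and 1299 CPM young, a ratio of 1.01 (0.963 to 1.06). Markers of endothelial cells, 6 genes of which 0 were at 0 in either library, summed to 67.2 CPM old and 8.44 CPM young, and free RNA took an estimated 20.4% old and 17.5% young, whose part was not tested.

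Classes of 50 to 199 cells in a library had summed ratios of 1.26 (1.18 to 1.35) in B cell-like, 1.21 (1.14 to 1.28) in endothelial cell-like, 1.104 (1.05 to 1.16) in monocyte-like, 1.07 (1.02 to 1.13) in T or NK cell-like and 1.03 (0.985 to 1.08) in pituicyte-like cells. More genes were higher than lower in old in each, with 18 of 25 in B cell-like, 17 of 25 in endothelial cell-like, 17 of 29 in monocyte-like, 18 of 29 in T or NK cell-like and 16 of 30 in pituicyte-like cells. Over all genes the shares were 61.1%, 47.8%, 59.5%, 65% and 57.1% in the same order. In monocyte-like, T or NK cell-like and pituicyte-like cells the share of these genes was thus not above that of all genes.

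In endothelial cell-like cells Ppp1r15a was highest, with 659 CPM old and 255 CPM young, a ratio of 2.59 (2.08 to 3.24), before Fkbp11 at 1.97 (0.808 to 5.49), and Atf6 at 0.592 (0.295 to 1.18) and Sel1l at 0.618 (0.366 to 1.04) were lowest. Hspa5 had 1.53 (1.301 to 1.804), Xbp1 0.935 (0.629 to 1.401), Atf4 1.78 (1.39 to 2.31) and Ddit3 1.54 (0.931 to 2.64) there. These are the cells that line blood vessels, and the values rest on 78 old and 85 young cells. Immune markers summed to 670.4 CPM old and 267 CPM young there, with 7 of the 30 at 0 old and 21 at 0 young, and their part was not tested. In B cell-like cells Sel1l at 2.67 (1.22 to 6.46) and Xbp1, which plasma cell formation needs, at 2.27 (1.36 to 3.902) were highest, and Edem1 at 0.279 (0.0798 to 0.796) and Herpud1 at 0.577 (0.385 to 0.855) lowest, with Hspa5 at 1.604 (1.34 to 1.92), Atf4 at 1.004 (0.778 to 1.296) and Ddit3 at 1.17 (0.828 to 1.67). In T or NK cell-like cells Atf6 at 2.42 (1.14 to 5.73) and Edem1 at 1.65 (0.869 to 3.296) were highest, and Fkbp11 at 0.581 (0.26 to 1.29) and P4hb at 0.596 (0.42 to 0.845) lowest, with Hspa5 at 1.11 (0.983 to 1.25), Xbp1 at 1.46 (0.933 to 2.34), Atf4 at 1.11 (0.891 to 1.38) and Ddit3 at 0.833 (0.627 to 1.11). Atf6 was high in monocyte-like cells too.

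In monocyte-like cells Creld2 at 2.25 (1.01 to 5.501) and Atf6 at 1.59 (1.02 to 2.497) were highest, and Hyou1 at 0.697 (0.359 to 1.34) and Herpud1 at 0.746 (0.5699 to 0.976) lowest, with Hspa5 at 1.46 (1.298 to 1.65), Xbp1 at 1.08 (0.7695 to 1.51), Atf4 at 1.204 (0.973 to 1.49) and Ddit3 at 0.833 (0.594 to 1.17). In pituicyte-like cells Asns, from 21 UMIs old and 2 young, at 4.74 (1.16 to 41.7) and Ddit3 at 1.956 (1.31 to 3.01) were highest, and Syvn1 at 0.602 (0.3297 to 1.11) and Pdia4 at 0.6499 (0.447 to 0.952) lowest, with Hspa5 at 1.27 (1.12 to 1.44), Xbp1 at 1.08 (0.785 to 1.503) and Atf4 at 1.65 (1.18 to 2.36). Immune markers in pituicyte-like cells summed to 222 CPM old and 32.8 CPM young, and free RNA took an estimated 25.99% old and 13.2% young of their UMIs, whose part was not tested.

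Across the 10 classes compared, Hspa5 was higher in the old library in 9, all but lactotroph-like cells, and Hsp90b1 and Canx also in 9 of 10. Ern1 was higher in all 9 classes where it was measured. Derl1 and Sec61b were higher in 2 of 10 classes each, and Derl3 in 0 of 3. The median log2 ratio of all genes measured was also above 0 in 9 of the 10 classes, all but endothelial cell-like cells. The share of all genes higher in old ran from 47.8% in endothelial cell-like to 70.3% in macrophage-like cells. No count of classes was computed over all genes, so these counts cannot be set against all genes. Apart from Hspa5, the genes were named after their counts were seen. These classes come from the same 2 libraries and are not replicates.

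A list of 79 other genes of the pathway, in 5 groups, showed where the 33 stood among their partners. In lactotroph-like cells 26 of 76 measured were higher in old, 5 at least 1.5-fold higher and 20 at least 1.5-fold lower, with a median log2 ratio of -0.30. Over all genes measured, 59.8% were higher in old, 21.0% at least 1.5-fold higher and 9.06% at least 1.5-fold lower. The other genes of the translocon, signal peptidase and oligosaccharyltransferase were low along with Sec61b and Ssr1, with 3 of 20 higher in old, 8 at least 1.5-fold lower and a median of -0.46. The other integrated stress response targets differed from Ppp1r15a and Ddit3, since 3 of 12 measured were higher in old and 7 were at least 1.5-fold lower, with a median of -0.64. In corticotroph-like cells 57 of 77 were higher in old, 9 at least 1.5-fold higher and 0 lower, with a median of 0.15, where 58.1%, 11.8% and 7.93% of all genes were. The number past the fold upward was near the share of all genes.

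In somatotroph-like cells 28 of 79 of these other genes were higher in old, 2 at least 1.5-fold higher and 4 lower, with a median log2 ratio of -0.14, which turned to 0.13 on all UMIs. Over all genes measured, 51.95% were higher in old, 11.8% at least 1.5-fold higher and 9.27% at least 1.5-fold lower. The 3 lowest were the translocon-associated subunit Ssr4 at 0.603 (0.579 to 0.628), Edem2 of ER-associated degradation at 0.618 (0.525 to 0.725) and the peroxiredoxin Prdx4 at 0.623 (0.567 to 0.683). The 3 highest were the stress factor Nupr1 at 6.34 (3.61 to 11.4), from 37 UMIs old and 21 young, the cystine transporter subunit Slc7a11 at 2.94 (1.08 to 7.81), from 9 UMIs old and 11 young, and the lipoprotein receptor Vldlr at 1.42 (1.28 to 1.58).

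Genes with and without an ERSE match in the promoter window had medians on the same side of 0 in 9 of the 10 classes compared between ages. In corticotroph-like cells the median log2 ratio of the 9 genes with a match was 0.43, with 8 higher in old, and that of the 20 genes without one 0.39, with 17 higher. In lactotroph-like cells the medians were -0.28, with 1 of 9 higher, and -0.15, with 8 of 20 higher. In stem cell-like cells 8 of 8 genes with a match and 15 of 20 without one were higher, with medians of 0.33 and 0.14. The exception was pituicyte-like cells, with medians of -0.092 with a match and 0.12 without one. By hormone share, described next, the medians lay on opposite sides in old lactotroph-like cells, at -0.15 with a match and 0.12 without one.

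Hormone load was set against these genes within each class, by ranking the cells of a library by the share of their UMIs that came from the 7 hormone genes and cutting them into 5 equal bins. The growth hormone producers showed a graded relation. In old somatotroph-like cells the summed level was 7335, 6992, 8193, 8962 and 10040.5 CPM from the lowest to the highest bin, at median hormone shares of 10.9%, 15.6%, 22.5%, 33.8% and 45.2%. In young ones it was 6938, 7673, 8627, 9544 and 10240 CPM at median shares of 15.4%, 23.3%, 33.8%, 44.8% and 55.3%. The top over bottom ratio was 1.37 (1.33 to 1.41) old and 1.48 (1.45 to 1.499) young, but as a share of all UMIs, hormones included, the sum was lower in the top bin, with log2 ratios of -0.24 old and -0.30 young.

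**Figure D4:**
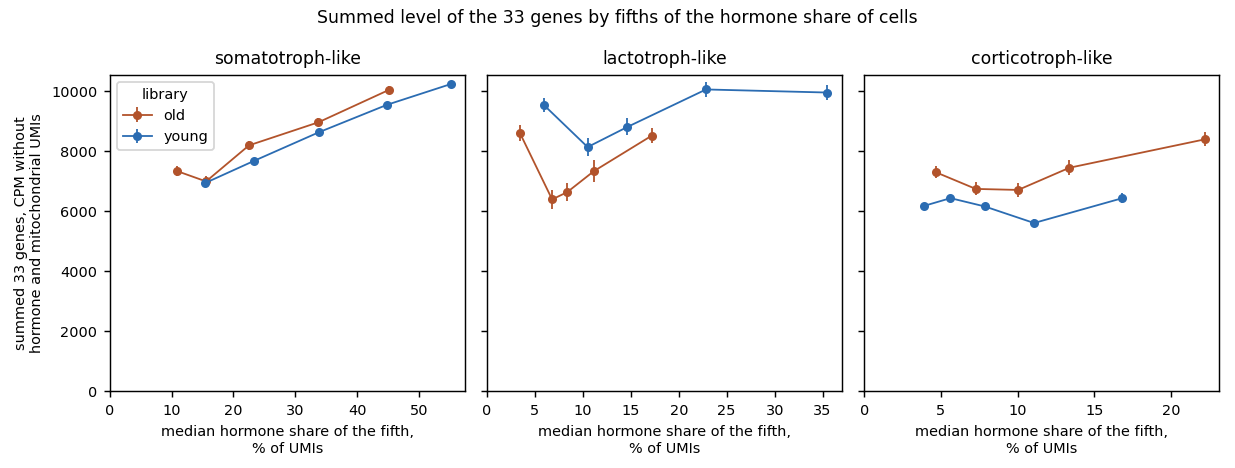
Summed level of the 33 genes in CPM (y axis, from 0) against the median hormone share of each bin of cells (x axis, percent of UMIs), with exact counting intervals, for 3 classes and both libraries. The somatotroph-like lines reach 10040.5 CPM old and 10240 CPM young in the top bin, while the lactotroph-like lines dip in the second bin, to 6394 CPM old and 8136 CPM young.

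Depth and Malat1 moved with hormone share in somatotroph-like cells. Median UMIs were 19691 in the top and 3818 in the bottom bin of the old library and 25088 and 3827 in those of the young one. Median Malat1 was 1.97% in the top and 9.92% in the bottom bin of the old library and 1.02% and 8.37% in those of the young one. The log2 top over bottom ratio of the sum was 0.45 old and 0.56 young in all cells, 0.56 old and 0.35 young among cells in the middle 50% of UMIs and 0.31 old and 0.48 young among those in the middle 50% of Malat1. It was 0.58 old and 0.63 young with cells thinned to 2000 UMIs and 0.29 old and 0.35 young when ranked within clusters. Over single cells thinned to 2000 UMIs, Spearman's rho between hormone share and the share of the 33 genes was 0.389 over 1127 old and 0.382 over 3990 young cells, which share a library, and is given as a description.

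The relation lay in some roles and not in others. In somatotroph-like cells the isomerases summed to 1735 CPM in the top and 879 CPM in the bottom bin of the old library, a ratio of 1.97 (1.83 to 2.13), and to 1761 CPM in the top and 760.3 CPM in the bottom bin of the young library, a ratio of 2.32 (2.21 to 2.43). The translocon genes summed had ratios of 2.19 (1.97 to 2.44) old and 2.29 (2.17 to 2.43) young, although Ssr1 alone had 1.14 (0.938 to 1.39) old and 0.875 (0.789 to 0.972) young. Lectin chaperones had 1.36 (1.23 to 1.51) old and 1.66 (1.56 to 1.77) young, and the chaperone group 1.33 (1.28 to 1.39) old and 1.46 (1.43 to 1.497) young. Hormone transcripts are not in that total, and with all UMIs as the total the isomerases (1.22 old and 1.27 young) and translocon (1.35 old and 1.26 young) stayed above 1, while the lectin chaperones (0.8401 old and 0.911 young) and chaperone group (0.824 old and 0.802 young) turned below it. The sensors and factors had 1.03 (0.949 to 1.12) old and 0.977 (0.935 to 1.02) young, the stress response targets 1.002 (0.923 to 1.09) old and 1.02 (0.976 to 1.07) young, and ER-associated degradation 1.03 (0.919 to 1.15) old and 1.05 (0.988 to 1.11) young. These lay between 0.537 and 0.637 with all UMIs as the total.

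Of 32 genes measured in old somatotroph-like cells, 13 were at least 1.5-fold higher in the top bin and 0 lower, where 18.6% and 25.5% of all genes were. Of 33 in the young library, 17 were higher and 5 lower, where 22.0% and 39.6% of all genes were. In both libraries 13 genes passed the fold upward, a count for which no share over all genes was computed. With all UMIs as the total, 3 passed it upward in the old library and 4 in the young library, and 11 and 13 passed it downward. No share over all genes was computed for these counts, so they cannot be set against all genes. Fkbp11 had 155 CPM in the top and 44.8 CPM in the bottom bin of the old library, a ratio of 3.46 (2.504 to 4.91), and 234 CPM in the top and 48.9 CPM in the bottom bin of the young library, a ratio of 4.79 (4.01 to 5.76). Sec61b, a subunit of the channel itself, had ratios of 2.73 (2.401 to 3.12) old and 3.08 (2.87 to 3.298) young, and Manf of 2.296 (1.995 to 2.65) old and 3.07 (2.83 to 3.34) young. Sdf2l1, a partner of the DNAJ co-chaperones, had 1.8 (1.27 to 2.603) old and 3.58 (2.798 to 4.65) young. Chac1 had 5.903 (1.498 to 50.98) old and 2.51 (1.49 to 4.52) young, the old ratio from 30 UMIs in the top and 2 in the bottom bin.

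BiP itself did not follow the hormone share on this scale, and with all UMIs as the total it was lower in the top bin, at a ratio of 0.638 old and 0.566 young. Hspa5 had 1619.8 CPM in the top and 1569.8 CPM in the bottom bin of the old library, a ratio of 1.03 (0.971 to 1.097), and 1402 CPM in the top and 1362 CPM in the bottom bin of the young library, a ratio of 1.03 (0.992 to 1.07). Xbp1 had ratios of 1.23 (1.05 to 1.44) old and 1.22 (1.12 to 1.34) young and Atf4 of 1.004 (0.898 to 1.12) old and 1.04 (0.9797 to 1.103) young. The stress sensors were lower in the top bin of the young library, with Ern1 at 49.8 CPM in the top and 97.7 CPM in the bottom bin of the young library, a ratio of 0.5096 (0.436 to 0.596), and Atf6 at 0.546 (0.468 to 0.638). In the old library Ern1 had 0.8498 (0.635 to 1.15) and Atf6 0.817 (0.621 to 1.08). Sel1l, the partner of HRD1, had 0.734 (0.581 to 0.932) old and 0.552 (0.4904 to 0.622) young, Trib3 0.682 (0.348 to 1.39) old and 0.634 (0.437 to 0.932) young and Ddit3 0.7696 (0.671 to 0.884) old and 0.841 (0.783 to 0.904) young. Hyou1, which was high in endocrine classes, had 0.939 (0.713 to 1.25) old and 0.627 (0.546 to 0.721) young.

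**Figure D5:**
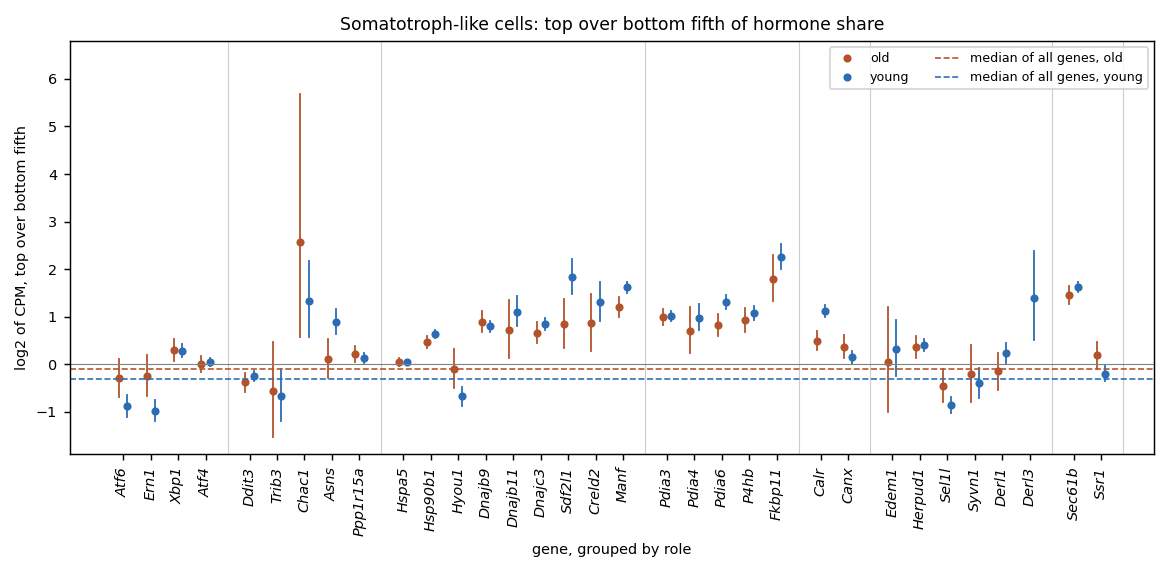
Log2 of the CPM ratio between the top and bottom bin of hormone share in somatotroph-like cells (y axis) for each measured gene (x axis, by role), old left of young, with exact counting intervals; dashed lines are the medians of all measured genes, -0.089 old and -0.32 young. The isomerases and Sec61b lie above 0, Hspa5 and Atf4 near 0, and Sel1l and Trib3 below 0.

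Lactotroph-like cells showed no such gradient on this scale when ranked by all hormone genes together. The summed level was 8596, 6394, 6635, 7333 and 8517 CPM from the lowest to the highest bin of the old library and 9533, 8136, 8807, 10054 and 9952 CPM in the young one. The top over bottom ratio was 0.991 (0.949 to 1.03) old and 1.04 (1.01 to 1.08) young. The lowest bin held deeper cells than the second, with a median of 9084 UMIs old and 8192 young. In the old library 2 of 29 genes were at least 1.5-fold higher and 1 lower, where 16.2% and 12.2% of all genes were. In the young one 0 were higher and 0 lower, where 9.73% and 14.5% of all genes were. On all UMIs the sum was lower in the top bin, with log2 ratios of -0.33 old and -0.54 young, and 2 genes were that much higher and 5 lower in the old and 0 higher and 11 lower in the young library. These counts cannot be set against all genes, since no share over all genes was computed on that total. The summed values moved upward when cells were ranked by the prolactin gene Prl alone. In CPM, the log2 top over bottom ratio of the sum was then 0.13 old and 0.30 young, against -0.013 old and 0.062 young by all hormone genes.

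Among the 4 highest in old lactotroph-like cells were Dnajb11 at 2.16 (1.32 to 3.66), Creld2 at 1.89 (0.962 to 3.88), Xbp1 at 1.38 (1.05 to 1.84) and Derl1 at 1.38 (0.924 to 2.09). The 4 lowest were Dnajc3 at 0.619 (0.455 to 0.837), a direction that turned among cells in the middle 50% of UMIs, Canx at 0.667 (0.532 to 0.834), Ssr1 at 0.736 (0.535 to 1.01) and Pdia6 at 0.739 (0.569 to 0.958). In the young library Fkbp11 at 1.44 (1.03 to 2.01), Creld2 at 1.39 (0.832 to 2.34), Ssr1 at 1.36 (1.04 to 1.79) and Dnajb9 at 1.32 (1.09 to 1.59) were highest. Creld2 was the 1 gene among the highest of both libraries. Ppp1r15a at 0.768 (0.602 to 0.979), Pdia4 at 0.782 (0.534 to 1.14), Hyou1 at 0.805 (0.527 to 1.23) and Sel1l at 0.815 (0.545 to 1.22) were lowest in the young one.

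In corticotroph-like cells the isomerases and the summed translocon genes were higher in cells of high hormone share, and the summed stress response targets lower. That share was not the class's own hormone alone. Pomc took 8.90% of the UMIs of the class old and 3.62% young, and all hormone genes together 11.9% old and 8.46% young. The part of the other hormone transcripts in the ranking was not tested. Ranked by Pomc alone, the log2 top over bottom ratio of the sum was 0.45 old and was also positive in the young library. The sum of all 33 had top over bottom ratios of 1.15 (1.11 to 1.198) old and 1.04 (1.01 to 1.07) young, and turned to log2 ratios of -0.12 old and -0.26 young when the total was all UMIs. In the young library it also turned with 2 bins, at -0.076, and with cells thinned to 2000 UMIs, at -0.047. Over single cells so thinned, Spearman's rho was 0.124 over 308 old and -0.0786 over 1255 young cells, again a description. The translocon genes had 1.63 (1.42 to 1.88) old and 1.72 (1.54 to 1.91) young, and the isomerases 1.48 (1.34 to 1.64) old and 1.39 (1.28 to 1.501) young. The translocon sum stayed above 1 with all UMIs as the total, at 1.31 old and 1.38 young, as did the isomerases, at 1.19 old and 1.11 young. Ssr1 alone had 0.9603 (0.705 to 1.304) old and 1.16 (0.905 to 1.48) young, and 0.767 old and 0.931 young on all UMIs. The chaperone group had 1.28 (1.201 to 1.36) old and 1.11 (1.05 to 1.16) young, and 1.02 old and 0.887 young on all UMIs, below 1 in the young library. The lectin chaperones had 1.21 (1.07 to 1.38) old and 1.56 (1.41 to 1.72) young, and 0.9699 old and 1.25 young on all UMIs, below 1 in the old library. The stress response targets summed to 641 CPM in the top and 1129 CPM in the bottom bin of the old library, a ratio of 0.568 (0.4998 to 0.645), and to 626 CPM in the top and 1282 CPM in the bottom bin of the young library, a ratio of 0.488 (0.446 to 0.534). Ppp1r15a had 453 CPM in the top and 1101 CPM in the bottom bin of the young library, a ratio of 0.412 (0.371 to 0.456), and 464 CPM in the top and 781 CPM in the bottom bin of the old library, a ratio of 0.594 (0.511 to 0.691), which turned to a log2 ratio of 0.078 in the old library when cells were ranked by Pomc, the precursor of ACTH, alone. Ddit3 was lowest in the old library, with 101 CPM in the top and 261 CPM in the bottom bin of the old library, a ratio of 0.387 (0.282 to 0.525). Sel1l at 0.491 (0.286 to 0.816) and Trib3 at 0.636 (0.236 to 1.58) were also low there, and Atf4 at 0.648 (0.567 to 0.738), Dnajb9 at 0.674 (0.552 to 0.819) and Herpud1 at 0.782 (0.654 to 0.933) in the young one.

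The highest genes in corticotroph-like cells were folding and entry genes. Manf had 2.23 (1.796 to 2.77), Sec61b 1.91 (1.62 to 2.25), Creld2 1.85 (1.04 to 3.34) and Fkbp11 1.68 (1.08 to 2.66) in the old library, the last of which turned when cells were thinned to 2000 UMIs. In the young library Fkbp11 had 2.17 (1.5 to 3.13), Sec61b 1.91 (1.69 to 2.15), Hyou1 1.86 (1.27 to 2.702) and Calr 1.81 (1.599 to 2.05). Of 30 genes measured in each library, 7 were at least 1.5-fold higher and 4 lower in the old one, where 11.2% and 20.9% of all genes were. In the young one 7 were higher and 2 lower, where 8.71% and 13.7% of all genes were. On all UMIs the counts were 2 higher and 9 lower in the old and 2 higher and 4 lower in the young library. No share over all genes was computed on that total. Median UMIs were 8338 in the top and 11410.5 in the bottom bin of the old library and 2721 and 9699 in those of the young one, and the part of depth was not tested.

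The smaller endocrine classes were cut into 3 bins of hormone share where they had at least 50 cells. In 151 old melanotroph-like cells the summed level was 7805, 8063 and 9099 CPM from the lowest to the highest bin. The log2 top over bottom ratio was 0.22, and 0.032 on all UMIs and -0.42 among cells in the middle 50% of Malat1. Median Malat1 was 4.39% in the top and 12.3% in the bottom bin, and median UMIs 10017 in the top and 6192 in the bottom bin, whose part was not tested. In 63 young gonadotroph-like cells the summed level was 8557, 6956 and 10547 CPM, on 21 cells a bin. Their log2 top over bottom ratio of 0.30 turned to -0.11 on all UMIs and -0.40 among cells in the middle 50% of UMIs.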

How the data were processed

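Single-cell UMI counts per gene and barcode were deposited by the authors as unfiltered matrices, not normalized, 1 per age. Per the submitters' processing notes, Cell Ranger 6.0.2 and the mouse build GRCm39 were used. Version 4 of the software stands in the header of the matrices. The 33 genes, their roles and the other pathway lists were chosen with earlier results of these data known, and details of the cluster naming were set after the data were seen.

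Barcodes with at least 2000 UMIs, 500 genes and at most 15% mitochondrial UMIs were kept. The automatic doublet threshold marked 3 old barcodes and 0 young ones, so the highest doublet scores were removed at the expected rate, 766 old barcodes (7.83%) and 679 young ones (7.37%). Cells of both libraries were clustered together on 3000 variable genes, 40 principal components and 15 neighbours at resolution 1. A cluster correlated at 0.95 or more with empty droplets was set aside. All barcodes together held 138427393 UMIs old and 154510099 young.

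Each gene's UMIs were added up over the cells of a class in a library and divided by the total without hormone and mitochondrial genes. Ratios have exact conditional Poisson 95% intervals. Named genes were Hspa5, Xbp1, Atf4 and Ddit3 in every class, the 4 highest and 4 lowest by ratio in the 5 large classes (200 cells or more in each library) and in the hormone comparison, the 2 highest and 2 lowest in smaller classes, and the 3 highest and 3 lowest of the other pathway genes in the largest class. Genes outside that rule were chosen after their values were seen. Alternatives covered totals, doublets, depth, Malat1, free RNA, clustering and ranking. Shares of all genes past 1.5-fold were computed for the reported values alone, not for the alternatives. The calculations were tested on simulated data with known ratios. Clustering used scanpy 1.11.5 with igraph 0.11.9 under Python 3.11.15. Intervals came from scipy 1.17.1, and figures from matplotlib 3.10.9.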

Additional observations from a re-analysis of the deposited data

Results flagged for a closer look

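The summed level of the 33 genes, old over young, differed in direction between cell classes. It was lower in the old library, with the counting interval below 1, in lactotroph-like cells at a ratio of 0.824 and in somatotroph-like cells at 0.958, where the direction turned with all UMIs as the total, to a log2 ratio of 0.20, and in all 5 strata of hormone share, at ratios of 1.03 to 1.07. It was higher in the old library, with the interval above 1, in B cell-like cells at 1.26, endothelial cell-like cells at 1.21, corticotroph-like cells at 1.18, stem cell-like cells at 1.17, monocyte-like cells at 1.10, T or NK cell-like cells at 1.07 and macrophage-like cells at 1.03. The difference between classes was not tested, since each age has 1 library.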

How the results depend on the processing

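Values here are log2 ratios unless named otherwise. Of the summary results recomputed under the alternatives, 247 values lay within the interval of the value reported and 81 moved outside it. That was a counting interval for sums and ratios, an interval from the ranked genes for medians and one over cells for Spearman's rho. Of the values of single genes and classes and the counts of genes, 1580 stayed, 336 moved and 3 of those past 1.5-fold turned in direction. A count stayed if it was within 1.5-fold of the one reported. The cause of each move was not tested. The median over the 33 genes, old over young, kept its sign under every alternative in lactotroph-like cells (-0.24 to -0.036, reported -0.20) and in corticotroph-like cells (0.29 to 0.51, reported 0.39).
With all UMIs as the total, the old over young sum was 0.19 in corticotroph-like, -0.11 in lactotroph-like and 0.20 in somatotroph-like cells, the median in somatotroph-like cells was 0.14, and the medians of the other pathway genes were 0.10 in corticotroph-like and 0.13 in somatotroph-like cells. The endocrine over other ratio (linear) was 1.33 old and 1.26 young. The top over bottom values by hormone share were -0.24 old and -0.30 young in somatotroph-like, -0.33 old and -0.54 young in lactotroph-like and -0.12 old and -0.26 young in corticotroph-like cells, 0.032 in old melanotroph-like and -0.11 in young gonadotroph-like cells.
The endocrine over other ratio was 1.44 old and 1.43 young with at least 0.5% Malat1, 1.60 and 1.58 with at most 10% mitochondrial UMIs, 1.58 and 1.57 with free RNA subtracted, 1.44 and 1.36 as a mean over cells, and 1.43 in both with the pathway genes left out of clustering. In the young library it was 1.31 without doublet removal, 1.42 at resolution 0.5 and 1.55 without proliferating cell-like cells.
The old over young sum was -0.25 in lactotroph-like cells with at most 10% mitochondrial UMIs, and 0.074 in macrophage-like and 0.26 in stem cell-like cells with free RNA subtracted, where the median of the other pathway genes in B cell-like cells was -0.12. As a mean over cells it was 0.19 in corticotroph-like, -0.33 in lactotroph-like, -0.082 in somatotroph-like and 0.19 in stem cell-like cells, with a corticotroph-like median of 0.30. Without doublet removal it was 0.19 in corticotroph-like and 0.11 in stem cell-like cells, with a corticotroph-like median of 0.29. With free RNA of 500 to 900 UMIs subtracted, the corticotroph-like sum was 0.30 and the median 0.51. With strata of hormone share weighted equally, it was -0.24 in lactotroph-like and 0.062 in somatotroph-like cells.
The top over bottom values moved as follows. With 2 bins they were 0.37 old and 0.34 young in somatotroph-like, 0.050 old and 0.13 young in lactotroph-like, -0.076 in young corticotroph-like and 0.36 in old melanotroph-like cells. With at least 0.5% Malat1 they were -0.021 in young lactotroph-like, 0.15 in old melanotroph-like and 0.21 in young gonadotroph-like cells. In the middle 50% of Malat1 they were 0.31 old and 0.48 young in somatotroph-like, -0.17 old and -0.12 young in lactotroph-like, 0.0070 in young corticotroph-like and -0.42 in old melanotroph-like cells. In the middle 50% of UMIs they were 0.56 old and 0.35 young in somatotroph-like, -0.14 in young lactotroph-like, 0.13 in old corticotroph-like, 0.58 in old melanotroph-like and -0.40 in young gonadotroph-like cells, and Dnajc3 in old lactotroph-like cells turned to 0.085.
Thinned to 2000 UMIs they were 0.58 old and 0.63 young in somatotroph-like, -0.047 in young corticotroph-like, 0.66 in old melanotroph-like and 0.40 in young gonadotroph-like cells, and Fkbp11 in old corticotroph-like cells turned to -0.66. Ranked by the class's own hormone alone they were 0.13 old and 0.30 young in lactotroph-like, 0.45 old and 0.15 young in corticotroph-like and 1.05 in old melanotroph-like cells, and Ppp1r15a in old corticotroph-like cells turned to 0.078. Ranked within clusters they were 0.29 old and 0.35 young in somatotroph-like cells, without doublet removal 0.30 in young corticotroph-like cells. Thinned to 1000 UMIs, Spearman's rho in somatotroph-like cells was 0.291 old and 0.296 young.
Of the 33 genes, the number at least 1.5-fold higher in old corticotroph-like cells (7) was 4 with all UMIs as the total and with weighted strata, 2 without doublet removal and 12 with free RNA of 500 to 900 UMIs subtracted. The number at least 1.5-fold lower in old lactotroph-like cells (7) was 4 with all UMIs as the total, and in old somatotroph-like cells (1) it was 3 with at most 10% mitochondrial UMIs and as a mean over cells. Shares over all genes were not computed for these alternatives. The profile of 500 to 900 UMIs, the hormone strata, the middle 50% of Malat1 and leaving out proliferating cell-like cells were chosen after seeing the data. No paired analysis was possible because each age has 1 library. With 1 library per age, no library could be left out, and age cannot be told apart from the pool, the dissociation or the sequencing run.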
